A study of Mus musculus with 27 samples.

Results

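The miR-99, miR-100 and miR-125 families were followed in mouse cortex from 3 to 24 h after a transient stroke. The members are mmu-miR-125a-5p, mmu-miR-125b-5p, mmu-miR-99a-5p, mmu-miR-99b-5p, mmu-miR-100-5p and mmu-miR-100-3p (written below without the species prefix), chosen by name as the neighbours of let-7 in its genomic clusters. All 6 were found among the 1842 mature miRNA entries of the table, and all 6 were among the 1470 entries with enough counts to be tested. The small RNA libraries came from cortex of wild type C57BL6 mice aged 7 to 8 weeks. In the stroke groups a suture closed the middle cerebral artery for 35 min and was then withdrawn, and tissue of the occluded (ipsi) or the opposite (contra) side was taken 3, 6, 12 or 24 h later. Sham mice had the arteries exposed with no suture inserted. This gave 9 groups of 3 libraries, ipsi_3h to ipsi_24h, contra_3h to contra_24h and sham, and replicates 1, 2 and 3 of every group came from different days of surgery. Whether ipsi and contra libraries with one number came from the same animals is not stated in the labels.

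The miR-99 and miR-125 families are among the oldest in animals, and in many species they lie beside a let-7 gene in one transcript. miR-125 is the vertebrate relative of lin-4, the first miRNA found in Caenorhabditis elegans, and miR-125b is abundant in brain, where it acts in neuronal differentiation and, in mouse hippocampal neurons, on dendritic spines. The miR-99 family, which includes miR-100, is known for repressing mTOR, a kinase that controls growth. A hairpin gives a 5p and a 3p strand, and usually one of them, the 5p strand in these families, is kept while the other is mostly degraded.

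A miRNA finds its targets mainly through its seed, bases 2 to 8, so the mature sequences of the members are shown to mark which of them share one. They are RefSeq sequences of build GRCm38.p6, written 5′ to 3′, with the seed in capitals.
miR-99a-5p: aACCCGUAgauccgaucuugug
miR-99b-5p: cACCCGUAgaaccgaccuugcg
miR-100-5p: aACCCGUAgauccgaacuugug
miR-125a-5p: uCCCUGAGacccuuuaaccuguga
miR-125b-5p: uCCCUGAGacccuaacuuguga
miR-100-3p: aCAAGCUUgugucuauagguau
The first 3 have the seed ACCCGUA, which no other mouse miRNA of the RefSeq table has. miR-100-5p differs from miR-99a-5p by the single substitution U16A, counted from the 5′ end with the base of miR-99a-5p first, and miR-99b-5p differs from miR-99a-5p by A1C, U11A, U16C and U21C. miR-125a-5p and miR-125b-5p share the seed CCCUGAG and are identical over their first 13 bases. Of the other 3 mouse entries with that seed, miR-351-5p comes from a hairpin on the X chromosome outside the let-7 clusters, and miR-6367 and miR-6394 are not described further.
miR-351-5p: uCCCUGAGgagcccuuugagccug
Reads of near-identical members can be shared or split between entries, and how the authors counted such reads is not stated in the labels.

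The members come from 3 clusters, each with 1 let-7 hairpin between a miR-99 family hairpin and a miR-125 hairpin, all on the plus strand of build GRCm38. On chromosome 16 (chr16:77598936-77646343, 47.4 kb) Mir99a, Mirlet7c-1 and Mir125b-2 lie in introns of the noncoding gene Mir99ahg. On chromosome 9 (chr9:41531425-41582002, 50.6 kb) Mir100, Mirlet7a-2 and Mir125b-1 lie in introns of the noncoding gene Mir100hg. On chromosome 17 (chr17:17830188-17830879, 692 bp) Mir99b and Mirlet7e lie in introns of the protein-coding gene Spaca6 and Mir125a overlaps one of its exons. The mature miR-125b-5p is the same from chromosomes 9 and 16, so its counts hold both, and let-7a-5p and let-7c-5p are also made from hairpins elsewhere. The chromosome 9 hairpin is shown because both of its strands are members, here with miR-100-5p and then miR-100-3p in capitals.
Mir100: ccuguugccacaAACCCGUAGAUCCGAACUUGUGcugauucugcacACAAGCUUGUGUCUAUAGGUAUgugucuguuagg

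Total counts were 856591 to 1903416 per library. In sham replicate 2 and ipsi_6h replicate 3 the summed level of 4 epithelial markers was 25763 and 23303 CPM (counts scaled to a common library size, as in edgeR), against 328 to 905 CPM in the other 25 libraries. All 4 neuronal markers (miR-124-3p, miR-128-3p, miR-9-5p, miR-138-5p) were present in every library, with summed levels of 64600 to 193475 CPM. In whole tissue, fewer cells of a type and less miRNA per cell cannot be told apart.

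The members kept 1 order of counts in all 27 libraries: miR-125a-5p, miR-125b-5p, miR-99b-5p, miR-100-5p, miR-99a-5p and miR-100-3p. Levels below are CPM after scaling by the library total and its TMM factor, and since the members are 22 to 24 bases long they were not divided by length. Over the 27 libraries miR-125a-5p averaged 13820 ± 3488 CPM (SD) and ranked 15 of the tested entries. miR-125b-5p averaged 9454 ± 2968 CPM, and miR-99b-5p 2731 ± 949 CPM. miR-100-5p averaged 1085 ± 389 CPM and miR-99a-5p 808 ± 313 CPM. The other strand of the miR-100 hairpin, miR-100-3p, averaged 17.4 ± 6.19 CPM from 7 to 55 counts a library, so its single values carry a large counting error. Over libraries, the ranges of miR-125a-5p and miR-125b-5p overlapped, as did those of miR-99b-5p, miR-100-5p and miR-99a-5p in their order, while every miR-125b-5p level (5050 to 14349 CPM) was above every miR-99b-5p level (1407 to 4397 CPM). Together the 6 members took 1.93% of a library's counts at the lowest (ipsi_6h replicate 3), 2.78% at the median and 3.60% at the highest (contra_24h replicate 3).

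**Figure D1:**
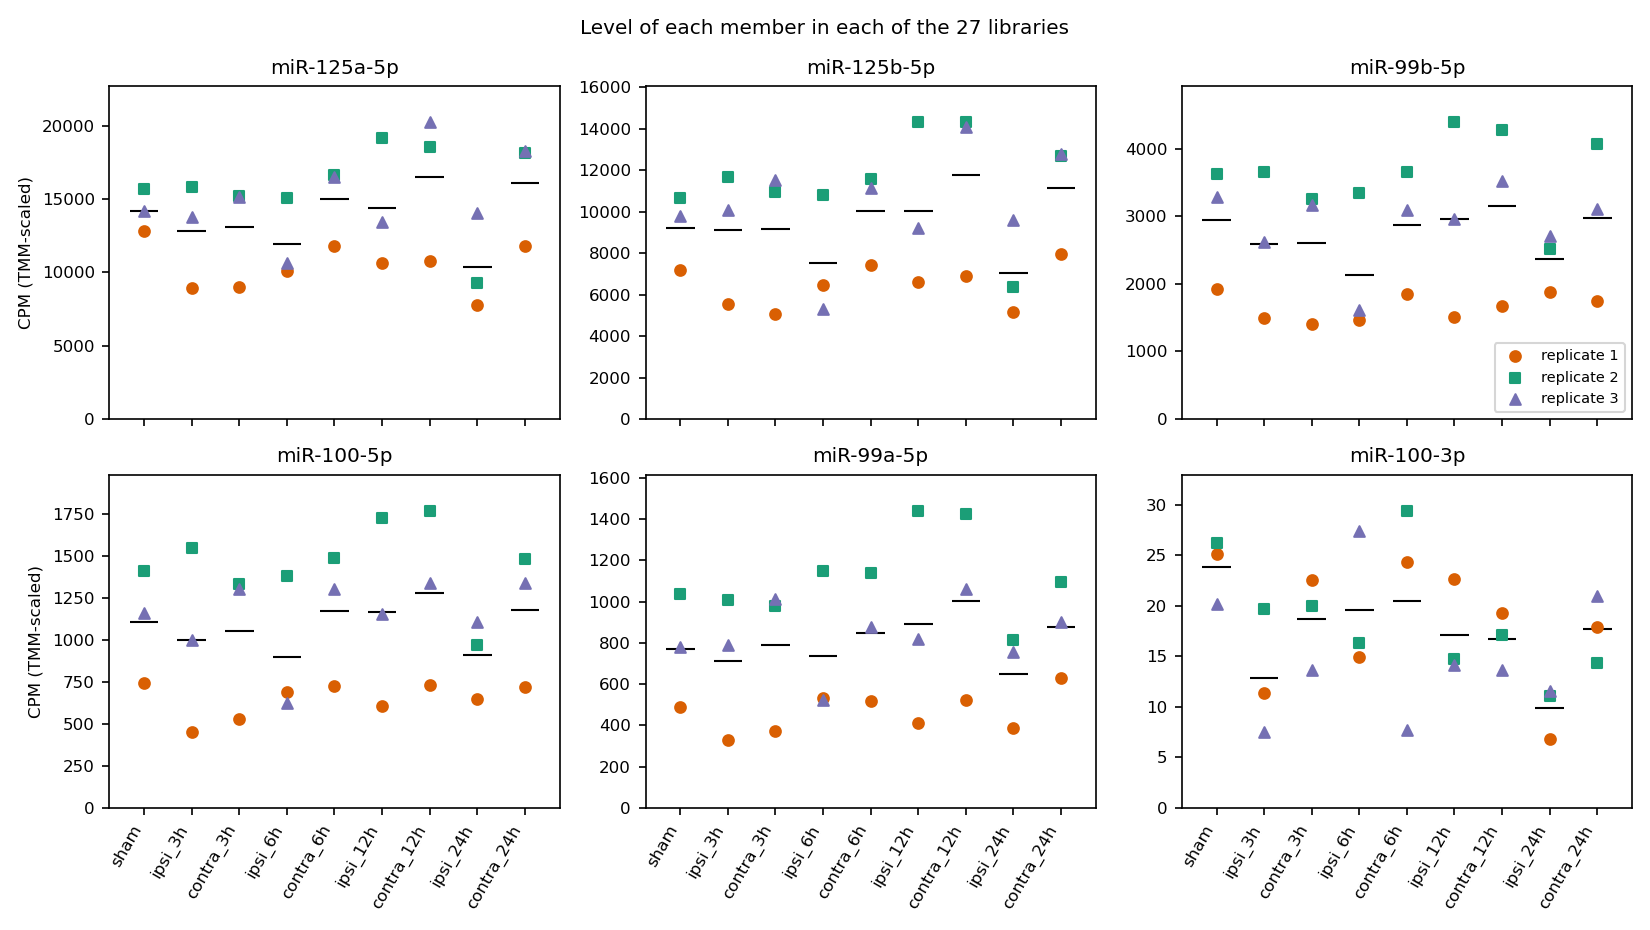
Level of each of the 6 members (y axis, TMM-scaled CPM, from 0) in each library, by group (x axis), with the replicate number as colour and shape and the group mean as a bar. Replicate 1 is the lowest of its group in 8 or 9 of 9 groups for every 5p member, while miR-100-3p shows no such order.

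The comparison of the 2 sides of the brain asks what the occlusion changed in the cortex it reached. No member was called in ipsi against contra cortex at 3, 6, 12 or 24 h (edgeR's quasi-likelihood test, Benjamini-Hochberg adjusted p under 0.05 over 1470 entries). Of all tested entries 0% were called at 3 h, 0% at 6 h, 4.35% at 12 h and 13.3% at 24 h, and 1.43% were called lower at 24 h. An unadjusted p under 0.05 was reached by no member at 3, 6 or 12 h and by 1 member, miR-125a-5p, at 24 h. DESeq2 called none at any of these times. The joint test over the 4 times called no member, against 8.98% of all entries, and the smallest member adjusted p was 0.69 (edgeR). With the replicate number as a block it called none either, against 11.6% of all entries, and the smallest was 0.0648, for miR-125a-5p. The test of whether the difference changed over time called no member, against 0.612% of all entries.

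The miR-125 pair had its widest gap between the sides at 24 h. miR-125a-5p was at 7772, 9240 and 14032 CPM in ipsi_24h replicates 1 to 3, against 11818, 18132 and 18249 CPM in contra_24h and 12782, 15671 and 14186 CPM in sham. Each ipsi_24h library was below the contra library of its own number, although ipsi_24h replicate 3 was above contra_24h replicate 1. The mean was 10348 ± 3274 CPM in ipsi_24h and 16066 ± 3679 CPM in contra_24h (SD, n = 3 each), with a log2 fold change in edgeR of -0.63 ± 0.30 (SE; adjusted p = 0.195). miR-125b-5p was at 5167, 6360 and 9582 CPM in ipsi_24h, against 7955, 12675 and 12802 CPM in contra_24h and 7167, 10663 and 9795 CPM in sham, which is the same layout as its partner. The sides differed by -0.66 ± 0.37 on the log2 scale (SE; edgeR adjusted p = 0.294). With the replicate number as a block, so that each library is set against those of its own surgery day, both were called lower in ipsi_24h. By edgeR, miR-125a-5p then fell by 0.63 ± 0.17 on the log2 scale (SE; adjusted p = 0.0114) and miR-125b-5p by 0.65 ± 0.21 (SE; adjusted p = 0.0322). In that fit 20% of all entries were called and 6.53% were called lower. The other 4 members were not called with the block, with edgeR adjusted p of 0.125 or more.

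The 2 calls with the block depended on the scaling. With DESeq2 size factors in edgeR both were kept, at -0.73 for miR-125a-5p and -0.76 for miR-125b-5p (edgeR adjusted p = 0.0133 and 0.0258). Against library totals alone the log2 fold changes with the block were -0.16 for miR-125a-5p and -0.17 for miR-125b-5p (edgeR adjusted p = 0.425 and 0.494), and with TMM factors from entries of at least 100 CPM they were -0.28 and -0.30 (edgeR adjusted p = 0.141 and 0.263). Neither was called with the block once ipsi_24h replicate 1 or replicate 2 was left out (edgeR adjusted p of 0.0579 to 0.213), and without contra_24h replicate 1 or replicate 3 only miR-125a-5p was. The choice of scaling moved the whole table at 24 h: over all tested entries the median was 0.08 on the log2 scale with TMM and 0.57 with library totals. Among the 283 entries of at least 100 CPM, where the 5p members belong, the median was -0.47 with TMM and 0.02 with totals, and 79.2% of these entries were below 0 with TMM.

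The 3 strands with the ACCCGUA seed were also lower on average in ipsi_24h with TMM, within the spread of the replicates. miR-99b-5p was at 1883, 2508 and 2705 CPM in ipsi_24h, against 1745, 4063 and 3099 CPM in contra_24h, so replicate 1 was higher on the occluded side. miR-100-5p was at 649, 971 and 1105 CPM in ipsi_24h, against 719, 1481 and 1340 CPM in contra_24h. miR-99a-5p was at 386, 814 and 753 CPM in ipsi_24h, against 629, 1096 and 900 CPM in contra_24h. For miR-100-5p and miR-99a-5p all 3 same-day differences were below 0, and the groups overlapped for each of the 3 strands. The log2 fold changes were -0.33 for miR-99b-5p, -0.38 for miR-100-5p and -0.43 for miR-99a-5p (edgeR adjusted p of 0.651 to 0.711). With library totals all 3 turned positive, at 0.16, 0.10 and 0.04, and with TMM factors from abundant entries miR-99b-5p did, at 0.03. Summed by seed, the ACCCGUA strands stood at 3933 CPM in ipsi_24h and 5026 CPM in contra_24h, and the miR-125 strands at 17419 CPM in ipsi_24h and 27217 CPM in contra_24h. In edgeR the sums differed by -0.35 ± 0.45 and -0.64 ± 0.33 on the log2 scale (SE; adjusted p = 0.689 and 0.234), and with the block the miR-125 sum was called lower (-0.63, adjusted p = 0.0165) and the other was not (-0.29, adjusted p = 0.314).

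miR-100-3p, the scarce strand of the miR-100 hairpin, was at 6.83, 11.1 and 11.6 CPM in ipsi_24h and at 17.9, 14.3 and 21.0 CPM in contra_24h. Its groups did not overlap at 24 h, the only member of which this held, and 28.2% of all entries had groups that did not overlap in this comparison. The log2 difference was -0.84 ± 0.41 (SE; edgeR adjusted p = 0.213).

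**Figure D2:**
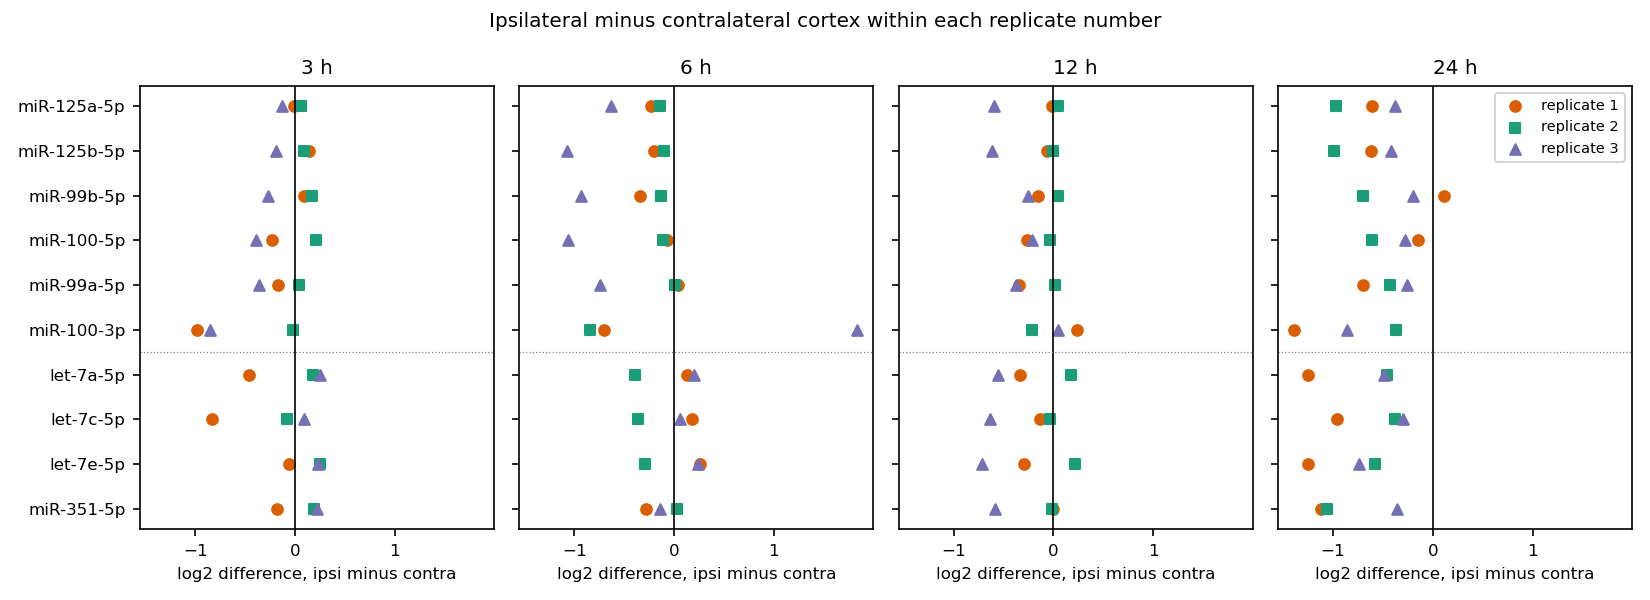
Log2 difference of CPM between the ipsi and the contra library of the same replicate number (x axis, 1 panel per time) for the 6 members, the let-7 neighbours and miR-351-5p, which has the miR-125 seed. At 24 h all points lie below 0 except miR-99b-5p in replicate 1, and at 6 h replicate 3 is the lowest of the 3 for each 5p member.

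Members were set beside their let-7 neighbours and the other strands of the same hairpins at 24 h. With TMM and no block, let-7a-5p and let-7e-5p were called lower in ipsi_24h than in contra_24h, and let-7c-5p was not, with log2 fold changes of -0.74, -0.85 and -0.56 (edgeR adjusted p = 0.0152, 0.00749 and 0.0587). Their groups did not overlap at 24 h, unlike those of the 5p members, whose log2 fold changes lay between -0.33 and -0.66. Groups that did not overlap were common at this abundance, in 143 of the 283 entries of at least 100 CPM. miR-351-5p was also called lower, at 235 ± 49.0 CPM in ipsi_24h and 422 ± 62.7 CPM in contra_24h (SD, n = 3 each; log2 fold change -0.84, edgeR adjusted p = 0.0306). None of the 8 other strands was called, and 7 of the 8 were below 0. With library totals the median was -0.26 for the let-7 neighbours and 0.04 for the 5p members. The summed level of the 4 neuronal markers moved with these values, at 67414 to 99876 CPM in ipsi_24h and 105495 to 159996 CPM in contra_24h, and the part of this and the following marker levels in the result was not tested. None of these 4 markers was called by itself. With TMM the summed levels of the other lists were also lower in ipsi_24h, apart from the epithelial one. A sum mostly holds its most abundant entries, and single entries could go the other way. The leukocyte marker miR-155-5p averaged 13.3 CPM in ipsi_24h and 8.52 CPM in contra_24h, while the other leukocyte markers tested were lower on average in ipsi_24h. All these sums depend on the scaling, since a larger TMM factor lowers the CPM. The factors were 1.18 to 1.43 in ipsi_24h and 0.83 to 0.99 in contra_24h, and the sums were not computed with library totals. Choroid plexus markers summed to 2236 to 2812 CPM in ipsi_24h and 2830 to 5328 CPM in contra_24h, with no overlap. This sum was mostly miR-204-5p, at a mean of 2450 CPM in ipsi_24h and 3796 CPM in contra_24h. The other choroid plexus marker, miR-211-5p, went the opposite way, at a mean of 46.2 CPM in ipsi_24h and 23.7 CPM in contra_24h. Vascular markers summed to 9449 to 16801 CPM in ipsi_24h and 15353 to 39521 CPM in contra_24h, and the oligodendrocyte, leukocyte and red cell sums overlapped likewise. Epithelial markers were at 488 to 905 CPM in ipsi_24h and 364 to 451 CPM in contra_24h.

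At the earlier times the sides differed less than the replicates did. The median log2 fold change of the 5 members that are 5p strands was -0.03 at 3 h, -0.38 at 6 h and -0.17 at 12 h. miR-125a-5p was at 8935, 15812 and 13794 CPM in ipsi_3h, against 8966, 15182 and 15119 CPM in contra_3h. At 12 h it was at 10643, 19178 and 13395 CPM in ipsi_12h, against 10757, 18548 and 20270 CPM in contra_12h, so the sides parted in replicate 3 only. At 6 h the widest gap was in ipsi_6h replicate 3, the library with the high epithelial markers, and without it the 6 h median was -0.22. There miR-125b-5p was at 5303 CPM against 11149 CPM in contra_6h replicate 3, while replicates 1 and 2 had 6447 and 10797 CPM in ipsi_6h and 7411 and 11582 CPM in contra_6h. miR-100-5p showed the same layout, with 690, 1383 and 624 CPM in ipsi_6h and 724, 1491 and 1305 CPM in contra_6h. miR-100-3p went the other way in that pair, with 33 counts in ipsi_6h replicate 3 and 7 counts in contra_6h replicate 3. At 3 h the median turned to 0.25 without ipsi_3h replicate 1, and at 12 h to 0.17 without contra_12h replicate 2 or ipsi_12h replicate 1, so no direction is given for those times.

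Against sham, 1 member was called in ipsi cortex at one time. At 24 h miR-100-3p had 10, 16 and 15 counts in ipsi_24h, against 31, 30 and 20 counts in sham and 19, 17 and 18 counts in contra_24h. In CPM this was 6.83, 11.1 and 11.6 in ipsi_24h and 25.1, 26.2 and 20.2 in sham, with no overlap, which holds for 28.9% of all entries in this comparison. The log2 fold change was -1.27 ± 0.40 (SE; edgeR adjusted p = 0.0324), where 12.7% of all entries were called and 1.36% were called lower. It was not called with library totals (-0.91), with TMM factors from abundant entries (-1.02), without the filter on low counts (-1.23), or without sham replicate 1 or 2 or ipsi_24h replicate 1 or 2 (edgeR adjusted p of 0.0583 to 0.23 over these settings). DESeq2 called it too (adjusted p = 0.0164). Its hairpin partner miR-100-5p was at -0.28 ± 0.46 on the log2 scale against sham (SE; edgeR adjusted p = 0.776), and the difference between the 2 strands was not tested there. At 3, 6 and 12 h no member was called in ipsi cortex against sham, where 0%, 0% and 5.44% of all entries were, and DESeq2 called none there. Only 1 member, miR-100-3p, reached an unadjusted p under 0.05 at these times, at 3 h. It was then at 11.4, 19.7 and 7.56 CPM in ipsi_3h, below all 3 sham libraries, which held for 10.5% of all entries as groups that did not overlap (log2 difference -0.86, edgeR adjusted p = 0.714).

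Contra cortex held no call against sham at any time, among members or in the whole table (0% called by edgeR at each of the 4 times). No member reached an unadjusted p under 0.05 there, and DESeq2 called no member. At 24 h the log2 fold changes of contra cortex against sham were -0.44 for miR-100-3p and 0.01 to 0.28 for the 5p members. At 12 h miR-100-3p was at 19.3, 17.1 and 13.7 CPM in contra_12h, below the 3 sham libraries, and in that comparison 11% of all entries had groups that did not overlap. The comparisons of ipsi and of contra cortex with sham use the same 3 sham libraries.

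The 5p members also differed between replicate numbers, which stand for days of surgery. Depth differed with the number too, with median total counts of 989275 in replicate 1, 1362208 in replicate 2 and 1010144 in replicate 3. Depth and anything else shared by 1 number cannot be told apart from the day. In a test of the replicate number, with a mean for every group in the model, 5 of the 6 members were called, against 25% of all tested entries and 54.8% of those with at least 100 CPM. The test takes the differences of replicates 2 and 3 from replicate 1 together, so each adjusted p belongs to both differences. miR-99a-5p was at 331 to 629 CPM over the 9 libraries of replicate 1, 814 to 1441 CPM over replicate 2 and 525 to 1062 CPM over replicate 3. Replicate 1 thus did not overlap replicate 2, and it was the lowest of its group in 8 of 9 groups. Relative to replicate 1, miR-99a-5p was higher by 1.27 on the log2 scale in replicate 2 and by 0.85 in replicate 3 (edgeR adjusted p = 1.56e-07). miR-99b-5p was at 1407 to 1927 CPM in replicate 1, 2508 to 4397 CPM in replicate 2 and 1610 to 3521 CPM in replicate 3. Its differences were 1.13 and 0.78 (edgeR adjusted p = 1.56e-07), and replicate 1 was lowest in all 9 groups. miR-100-5p had differences of 1.16 and 0.81 (edgeR adjusted p = 5.35e-07).

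The miR-125 strands followed the same days with smaller differences. miR-125a-5p was at 7772 to 12782 CPM in replicate 1, 9240 to 19178 CPM in replicate 2 and 10622 to 20270 CPM in replicate 3, with differences of 0.61 and 0.54 (edgeR adjusted p = 8.46e-05). miR-125b-5p had differences of 0.81 and 0.67 (edgeR adjusted p = 4.2e-05). Replicate 1 was lowest in 9 of 9 groups for miR-125a-5p and in 8 of 9 for miR-125b-5p, where being lowest in at least 8 groups holds for 7.21% of all tested entries and for 27.2% of those with at least 100 CPM. The exception in miR-99a-5p, miR-100-5p and miR-125b-5p was ipsi_6h, where replicate 3 was the lowest. miR-100-3p was not called, with differences of 0.07 and -0.23 (edgeR adjusted p = 0.557).

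This test was chosen after the values were seen. The same 5 members were called in each of the 33 settings run, which were the main one, 3 other scalings, no filter, DESeq2 and leaving out each of the 27 libraries. The size depended on the scaling, since the median TMM factor was 1.10 in replicate 1, 0.843 in replicate 2 and 1.04 in replicate 3. With library totals replicate 2 exceeded replicate 1 by 0.84 for miR-99a-5p, 0.70 for miR-99b-5p, 0.74 for miR-100-5p, 0.18 for miR-125a-5p and 0.39 for miR-125b-5p on the log2 scale.

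The let-7 neighbours in the same clusters were not called by surgery day. let-7a-5p, let-7c-5p and let-7e-5p had replicate 2 against replicate 1 differences of 0.08, 0.05 and -0.13. Their replicate 3 against replicate 1 differences were -0.06, -0.02 and -0.26 (edgeR test of both differences together, adjusted p = 0.562, 0.853 and 0.129). Of the 8 other strands of the cluster hairpins 1 was called, miR-125b-2-3p, with differences of 0.69 and 0.36 (edgeR adjusted p = 1.05e-04). miR-125b-1-3p, from the other hairpin that makes miR-125b-5p, was at 0.13 and -0.15 (edgeR adjusted p = 0.0771). miR-351-5p, with the miR-125 seed, was at 0.35 and 0.14 (edgeR adjusted p = 0.0747), and miR-10a-5p and miR-10b-5p, of the related miR-10 family, were not called.

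**Figure D3:**
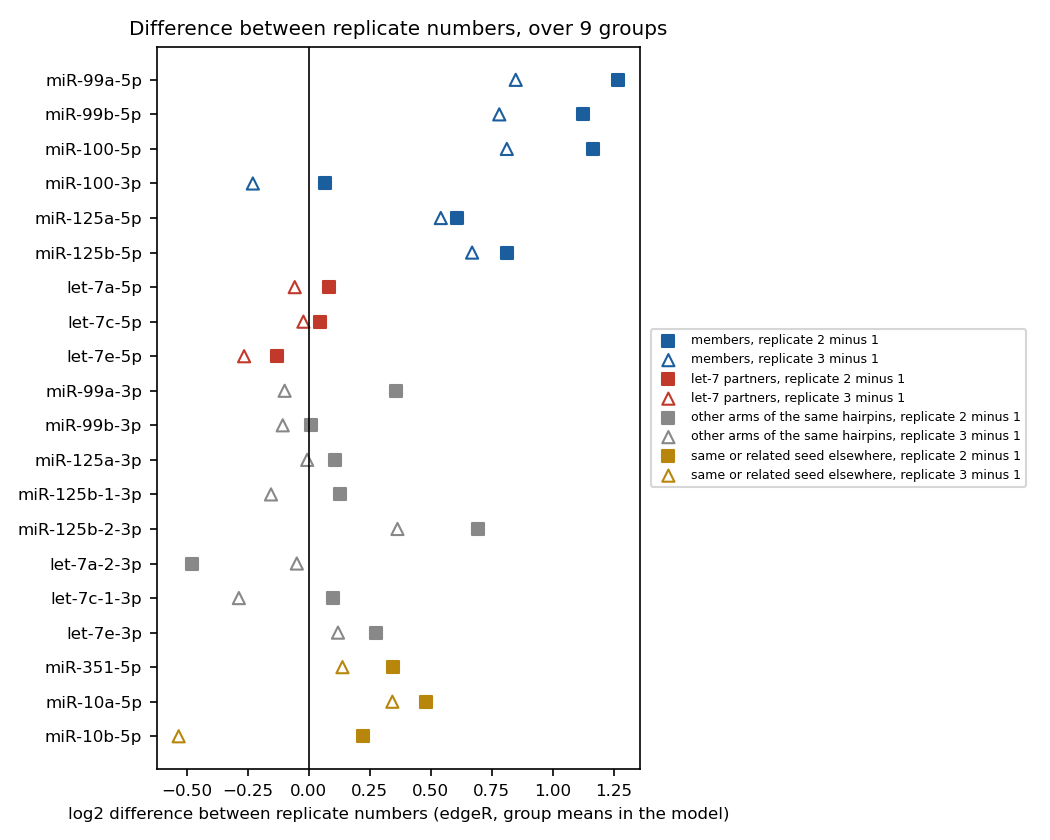
Log2 difference of replicate 2 (filled squares) and replicate 3 (open triangles) from replicate 1 over the 9 groups (x axis) for the members, the let-7 neighbours, the other strands of the same hairpins and miR-351-5p, miR-10a-5p and miR-10b-5p. The 5p members lie at 0.54 to 1.27, and the let-7 neighbours at -0.26 to 0.08.

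Markers of several cell types moved with the surgery day as well. Of the 4 neuronal markers 3 were called, and their summed level was 64600 to 106657 CPM in replicate 1, 99876 to 193475 CPM in replicate 2 and 77557 to 147393 CPM in replicate 3. Of the 2 oligodendrocyte markers tested 1 was called, with a sum of 888 to 1790 CPM in replicate 1, 1790 to 3269 CPM in replicate 2 and 1362 to 2206 CPM in replicate 3. Both red cell markers tested, 2 of 3 vascular and 1 of 4 leukocyte markers were called, and these were higher in replicate 2 than in replicate 1. Of the 2 choroid plexus markers 1 was called, miR-204-5p, which was lower in replicate 2 than in replicate 1. No epithelial marker of 4 was called. None of these tested markers was at 0 in any library, and their part in the members' differences was not tested.

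Ratios within a library do not depend on its scaling, and they showed the members and their let-7 neighbours parting by day. There were 0.0268 counts of miR-99a-5p per count of let-7c-5p at the median of replicate 1 (range 0.0170 to 0.0314), 0.0593 in replicate 2 (0.0512 to 0.0688) and 0.0487 in replicate 3 (0.0279 to 0.0632). Replicate 1 was the lowest in all 9 groups. On the log2 scale the mean of this ratio was -5.26, -4.05 and -4.40 in replicates 1, 2 and 3. The ratio of miR-100-5p to let-7a-5p averaged -4.44, -3.36 and -3.58, and that of miR-99b-5p to let-7e-5p -2.12, -0.87 and -1.08, with replicate 1 lowest in 8 of 9 groups for each. On chromosome 17, where the 3 hairpins span 692 bp, miR-125a-5p to let-7e-5p averaged 0.51, 1.25 and 1.31 on the log2 scale. In ipsi_24h replicate 1 the ratio of miR-99b-5p to let-7e-5p was 0.545, above the other 8 libraries of replicate 1, which lay between 0.142 and 0.253.

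**Figure D4:**
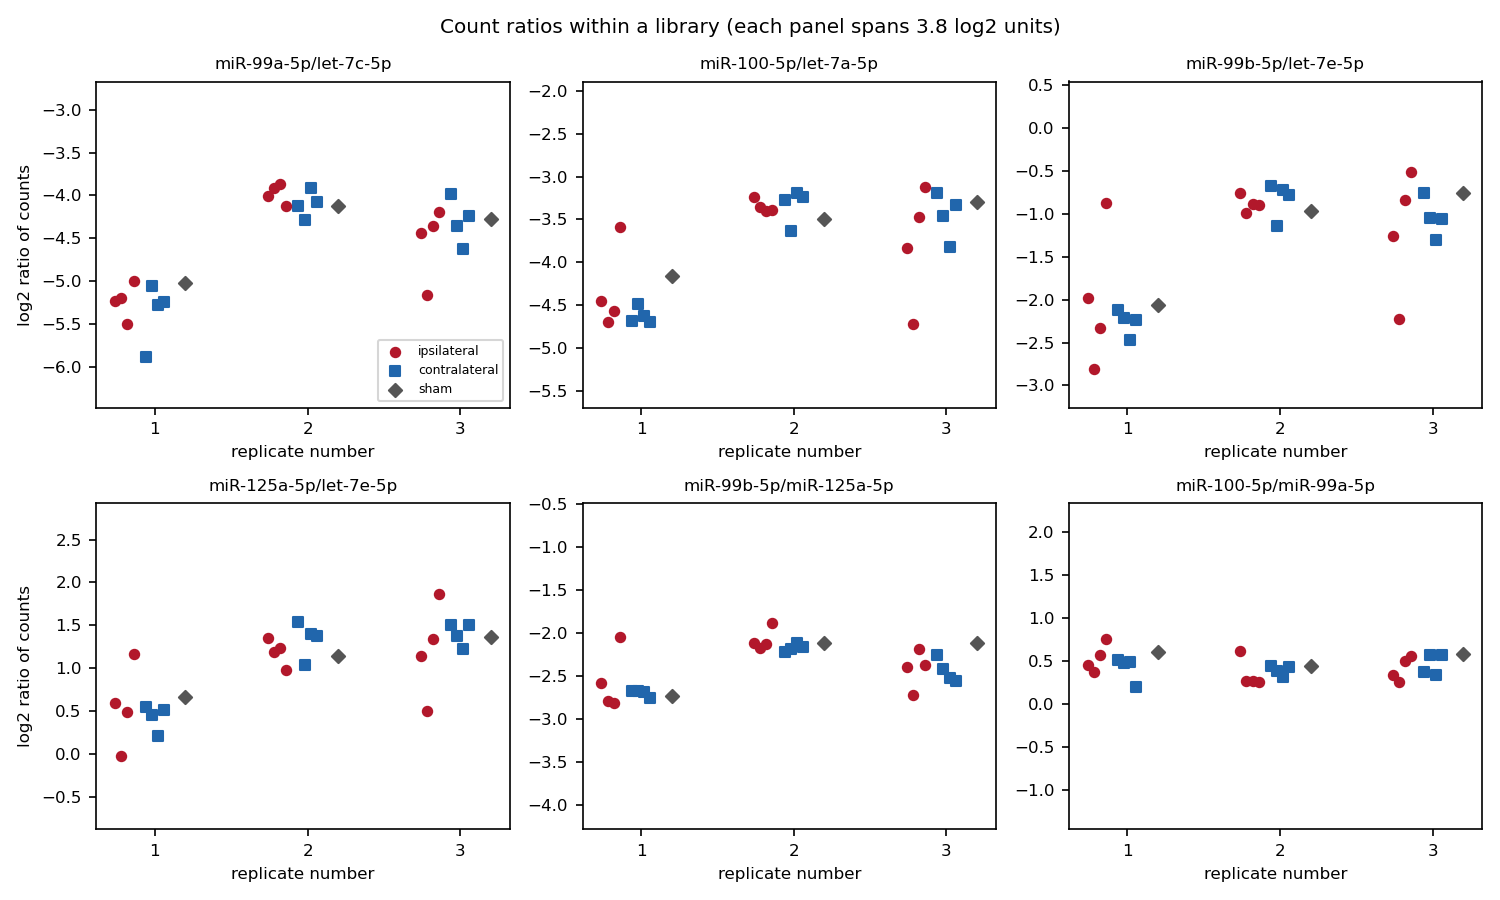
Log2 ratio of counts of 2 miRNAs within each library (y axis, the same span in each panel) by replicate number (x axis), with ipsi, contra and sham libraries by colour and shape. The 4 ratios of a member to its let-7 neighbour are lower in replicate 1 in 8 or 9 of 9 groups, and the ratio of miR-100-5p to miR-99a-5p lies between 0.19 and 0.75 in all libraries.

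Ratios between members that are 5p strands varied less over the 27 libraries than the 4 ratios of a member to its let-7 neighbour. The SD of the log2 ratio was 0.14 for miR-100-5p to miR-99a-5p and for miR-125a-5p to miR-125b-5p, and 0.20 for miR-99b-5p to miR-99a-5p and for miR-100-5p to miR-125b-5p. It was 0.25 for miR-99a-5p to miR-125b-5p and 0.28 for miR-99b-5p to miR-125a-5p, against 0.47 to 0.69 for the let-7 ratios. Ratios across the 2 seeds also followed the surgery day, with replicate 1 lowest in 8 of 9 groups for miR-99b-5p to miR-125a-5p and in 7 of 9 for the other 2. Within the miR-125 seed, replicate 1 was the highest in 8 of 9 groups for miR-125a-5p to miR-125b-5p. That log2 ratio averaged 0.68, 0.48 and 0.56 in replicates 1, 2 and 3. miR-100-5p and miR-99a-5p differ by 1 base, and whether shared reads enter their ratio was not tested. The ratio of the 2 strands of Mir100 varied most of the 11, with an SD of 0.81, and the log2 ratio of miR-100-3p to miR-100-5p averaged -5.23 in replicate 1, -6.32 in replicate 2 and -6.33 in replicate 3, with replicate 1 highest in 7 of 9 groups.

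None of the 11 ratios passed a two-sided exact permutation test between the sides that swaps the labels within the 12 same-day pairs of ipsi and contra libraries. The mean log2 differences, ipsi minus contra, lay between -0.08 for miR-100-3p to miR-100-5p and 0.09 for miR-99b-5p to miR-125a-5p. The ratio of miR-99b-5p to miR-125a-5p had the smallest exact p, 0.312, with an adjusted p over the 11 ratios of 0.942, and it was above 0 in 7 of 12 pairs. For miR-99a-5p to let-7c-5p the mean difference was 0.01 ± 0.39 (SD, n = 12 pairs), above 0 in 7 of 12 pairs (exact permutation p = 0.942). Single times were not tested. At 24 h, 3 ratios were above 0 in all 3 pairs: miR-99b-5p to miR-125a-5p, with differences of 0.71, 0.28 and 0.18 in replicates 1 to 3 (mean 0.39), miR-100-5p to miR-125b-5p, with 0.48, 0.39 and 0.14 (mean 0.33), and miR-125a-5p to miR-125b-5p, with a mean of 0.03. The ratios of a member to its let-7 neighbour had 24 h means of 0.08 to 0.60, each above 0 in 2 of 3 pairs, and miR-100-3p to miR-100-5p had a mean of -0.53, above 0 in 1 of 3.

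As a description over the 27 libraries, the 5p members correlated with each other at a Pearson r of log2 CPM between 0.872 and 0.977, and with miR-100-3p at -0.067 to 0.119. The low counts of miR-100-3p, 7 to 55 a library, limit its r. The r of the 5p members with the 3 let-7 neighbours was -0.133 to 0.424. With miR-125b-2-3p it was 0.839 to 0.925, and with the remaining other strands of the cluster hairpins -0.415 to 0.694. Among 278 other entries of at least 100 CPM, the 3 most alike were named for each member. For miR-99a-5p they were miR-191-5p (r = 0.979), miR-151-5p (0.97) and miR-127-3p (0.966). For miR-99b-5p they were miR-191-5p (0.96), miR-330-3p (0.95) and miR-124-3p (0.942), and for miR-100-5p miR-191-5p (0.965), miR-151-5p (0.963) and miR-124-3p (0.957). For miR-125a-5p they were miR-484 (0.954), miR-151-5p (0.939) and miR-369-5p (0.927), and for miR-125b-5p miR-151-5p (0.96), miR-26a-5p (0.953) and miR-195a-5p (0.941). Each of these was also called by surgery day. miR-100-3p had no entry so close, with miR-592-5p (0.66), miR-340-5p (0.634) and miR-219a-2-3p (0.633), none of which was called by surgery day. The libraries share their day of surgery, tissue and scaling, so these values hold the day differences described above.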

How the data were processed

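Small RNA was sequenced from 27 cortex libraries (TruSeq small RNA, inserts of 15 to 35 bp, 69 bp reads, per the labels' protocols). The authors deposited raw counts per mature miRNA, and the submitters' processing notes list Novoalign and edgeR. Which genome build and miRNA annotation they used, and how reads with several matches were handled, is not stated in the labels. All columns were used.

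Counts were tested with edgeR 4.0.16 in R 4.3.3 (filterByExpr, TMM, robust quasi-likelihood F test, 9 group means, 18 residual degrees of freedom), with p-values adjusted over 1470 entries. SE is the log2 fold change over the root of F. Alternatives were DESeq2 1.42.0, other scalings, no filter, only the libraries compared, seed-family sums, each library left out, and a replicate block. The block follows the design text, in which sets of replicates are different surgery days. Deviations from group means correlated at 0.233 on average for equal numbers, with a lowest r of -0.509. The average of -0.116 for unequal numbers largely follows from centring each group on its mean, so it adds no separate evidence. Precision is limited by 3 libraries a group, and counting error is large only for miR-100-3p. Tests were checked on simulated counts.

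Members, lists and markers were chosen with earlier results of these data known. Named entries are all members, their cluster neighbours, the other strands, miR-351-5p with the miR-125 seed, the related miR-10a-5p and miR-10b-5p, markers and the 3 most alike entries of each member.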

Additional observations from a re-analysis of the deposited data

Results flagged for a closer look

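In 3 cases every same-day difference of a ratio between the sides went one way at one time and the other way at another time. The differences between times were not tested. The log2 ratio of miR-99a-5p to miR-125b-5p, ipsi minus contra, averaged -0.18 at 3 h (all 3 pairs below 0) and 0.22 at 6 h (all 3 above 0). The log2 ratio of miR-99b-5p to miR-99a-5p averaged 0.16 at 3 h (3 above 0) and -0.24 at 6 h (3 below 0). The same ratio at 6 h, -0.24, also differed in sign from 12 h, at 0.11 (3 above 0). These come from 11 ratios at 4 times, and neither ratio passed over the 12 pairs (exact permutation test, adjusted p = 0.942).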

How the results depend on the processing

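In ipsi_24h against sham the count of called members was 1, and it was 0 with library totals, with TMM factors from entries of at least 100 CPM and without the filter on low counts; leaving out single libraries gave 0 to 1. In ipsi_24h against contra_24h it was 0, and 2 with the replicate block, which moved no other count of called members. With the block, that count stayed 2 with DESeq2 size factors in edgeR. It was 0 with library totals, 0 with TMM factors from abundant entries and 1 without the filter, and leaving out single libraries gave 0 to 2. The other scalings, filter and left-out libraries within the block were chosen after the data were seen. The cause of each of these changes was not tested.

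Signs turned as follows. With library totals the 24 h log2 fold changes of ipsi against contra were 0.042 for miR-99a-5p, 0.16 for miR-99b-5p and 0.10 for miR-100-5p, and against sham 0.14, 0.073 and 0.10. With TMM factors from abundant entries miR-99b-5p was at 0.029 against contra and miR-99a-5p at 0.021 against sham. The replicate 2 minus replicate 1 difference of miR-100-3p was -0.36 with library totals and -0.24 with the abundant entries. Leaving out single libraries, that difference ranged from -0.039 to 0.14 (lowest without ipsi_3h replicate 2; -0.033 and -0.022 without contra_6h replicate 2 and ipsi_24h replicate 1), and miR-99a-5p in ipsi_24h against sham from -0.54 to 0.040 (without sham replicate 2; 0.029 without ipsi_24h replicate 1). Without the 24 h pairs the mean log2 ratio of miR-99b-5p to miR-125a-5p was -0.015. Of the alternatives for counts of calls and for ratios, 251 kept their value or call and 15 did not. Seed-family sums give no count of members. Depth limits only miR-100-3p, with 7 to 55 counts a library.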
